A study of Homo sapiens with 12 samples.

Results

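Rab GTPases are small membrane-bound proteins that switch between a GTP-bound active state and a GDP-bound inactive state and direct where transport vesicles bud, move, tether and fuse. Exchange factors load them with GTP, GTPase activating proteins switch them off, and effectors read the active form. Each Rab marks a limited set of membranes, such as early endosomes, recycling endosomes, secretory vesicles, the Golgi apparatus or lysosomes. The genes described here are those whose platform symbol is RAB followed by a number and at most 1 letter, without RAB5A and RAB26. The platform held 60 such genes on 85 probes, and 46 of them, on 58 probes, were detected on at least 4 of the 12 arrays and were tested among 11835 genes. Detection, at a detection p under 0.05, was the only measured value stated in this rule. RAB5A and RAB26 were left out by name, when earlier results of these data were known. The counts below depend on leaving them out, and their changes are given for comparison.

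Expression was measured on Illumina BeadChips at 48 h in TC71, an established cell line of Ewing sarcoma. The 3 groups were cells expressing a mimic of the microRNA miR-130b, cells with an anti-miR against it, and cells expressing a scrambled control, with 4 arrays each. All groups are the same cell line, and nothing in the labels tells if a group's arrays came from separate cultures, so p-values measure the spread between these samples, which may be technical. The kind of anti-miR, and the arm of the microRNA that the mimic supplies, are not given in the sources used here.

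MicroRNAs bind transcripts mainly through the seed, bases 2 to 8 from their 5′ end, and binding lowers the level or translation of the transcript. The mature sequences of both arms of human miR-130b are shown because the mimic and the anti-miR are named for this microRNA. They are printed 5′ to 3′ from RefSeq (GRCh38.p14), with the seed in capitals, and lie on the plus strand at chr22:21653354-21653375 (3p arm) and chr22:21653316-21653336 (5p arm).
hsa-miR-130b-3p: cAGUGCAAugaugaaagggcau
hsa-miR-130b-5p: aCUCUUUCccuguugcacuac

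Between 19081 and 20326 of the 47322 probes were detected on the mimic arrays, 19572 to 20544 on the anti-miR arrays and 19008 to 19937 on the scramble arrays. Median raw intensity was 84.5 to 87.6 on mimic arrays, 72 to 82.5 on anti-miR arrays and 85.5 to 88.8 on scramble arrays. Arrays of the same group correlated at 0.990 to 0.994, and no pair of arrays held identical values. All 8 Ewing sarcoma markers on the array were detected on all 12 arrays, as were 4 of 7 fibroblast and 1 of 5 epithelial markers, whereas 0 of 4 blood and 0 of 4 endothelial markers were. The summed linear level of the fibroblast list was 1926 to 2505 on mimic arrays, 1885 to 2347 on anti-miR arrays and 2052 to 2412 on scramble arrays. That of the epithelial list, of which CDH1 and KRT19 were detected on no array, was 188 to 244 on mimic arrays, 167 to 195 on anti-miR arrays and 167 to 181 on scramble arrays. These are transcripts measured in the same cell line, and their part in the results was not tested. ARHGAP1, the target named in the series title, was lower in mimic cells, with a change of −0.58 ± 0.14 (adjusted p = 0.0150), at 8.16 ± 0.38 against 8.74 ± 0.02 in scramble cells.

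Levels below are normalized log2 intensities of the brightest probe of each gene, and each change is a difference of group means on that scale, given with limma's moderated standard error. Adjusted p-values are Benjamini-Hochberg values over all 11835 genes, and a gene was called changed under 0.05. Levels of different genes are not ranked against each other, because probes differ in how brightly they hybridize. In a bulk extract, less RNA per cell and fewer cells expressing a gene cannot be told apart. The counts of calls and the change of each Rab gene or regulator called in any comparison were recomputed under up to 15 other settings of the processing or the fit and without each of the 12 arrays in turn, together called the alternatives.

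Compared with scramble cells, mimic cells showed changes in 10 of the 46 Rab genes, which is 21.7% of them against 16.2% of all genes tested. Of these, 7 were lower (15.2%, against 8.77% of all genes) and 3 were higher (6.52%, against 7.44%). The lower genes were RAB40B, RAB24, RAB34, RAB3C, RAB13, RAB10 and RAB4A, and the higher genes were RAB15, RAB35 and RAB8A. The calls were spread over recycling (2 higher, 1 lower of 7 tested), secretory (1 higher, 3 lower of 11), Golgi and endoplasmic reticulum (1 lower of 12), late endosome and lysosome (1 lower of 6) and other Rabs (1 lower of 5), with 0 of 5 early endosome genes called. The median change was 0.04 over the 46 genes, 25 of them positive and 21 negative. Over all genes it was −0.0042, with 5828 positive and 6007 negative. The mimic and scramble arrays did not overlap for 15 of the 46 genes (32.6%), against 21% of all genes. At an unadjusted p under 0.05 the counts were 21 of 46 (45.7%) and 32.4% of all genes. With median scaling in place of quantile normalization the 46 genes held 3 higher and 4 lower. All genes then held 1998 calls, 1094 higher and 904 lower, against 1919 with quantile normalization. Without 1 array the count of 10 fell to 5 (mimic replicate 4, scramble replicate 1 or scramble replicate 2) or to 6 (mimic replicate 3 or scramble replicate 3). In the same runs the count over all genes fell from 1919 to between 1089 and 1303.

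**Figure D1:**
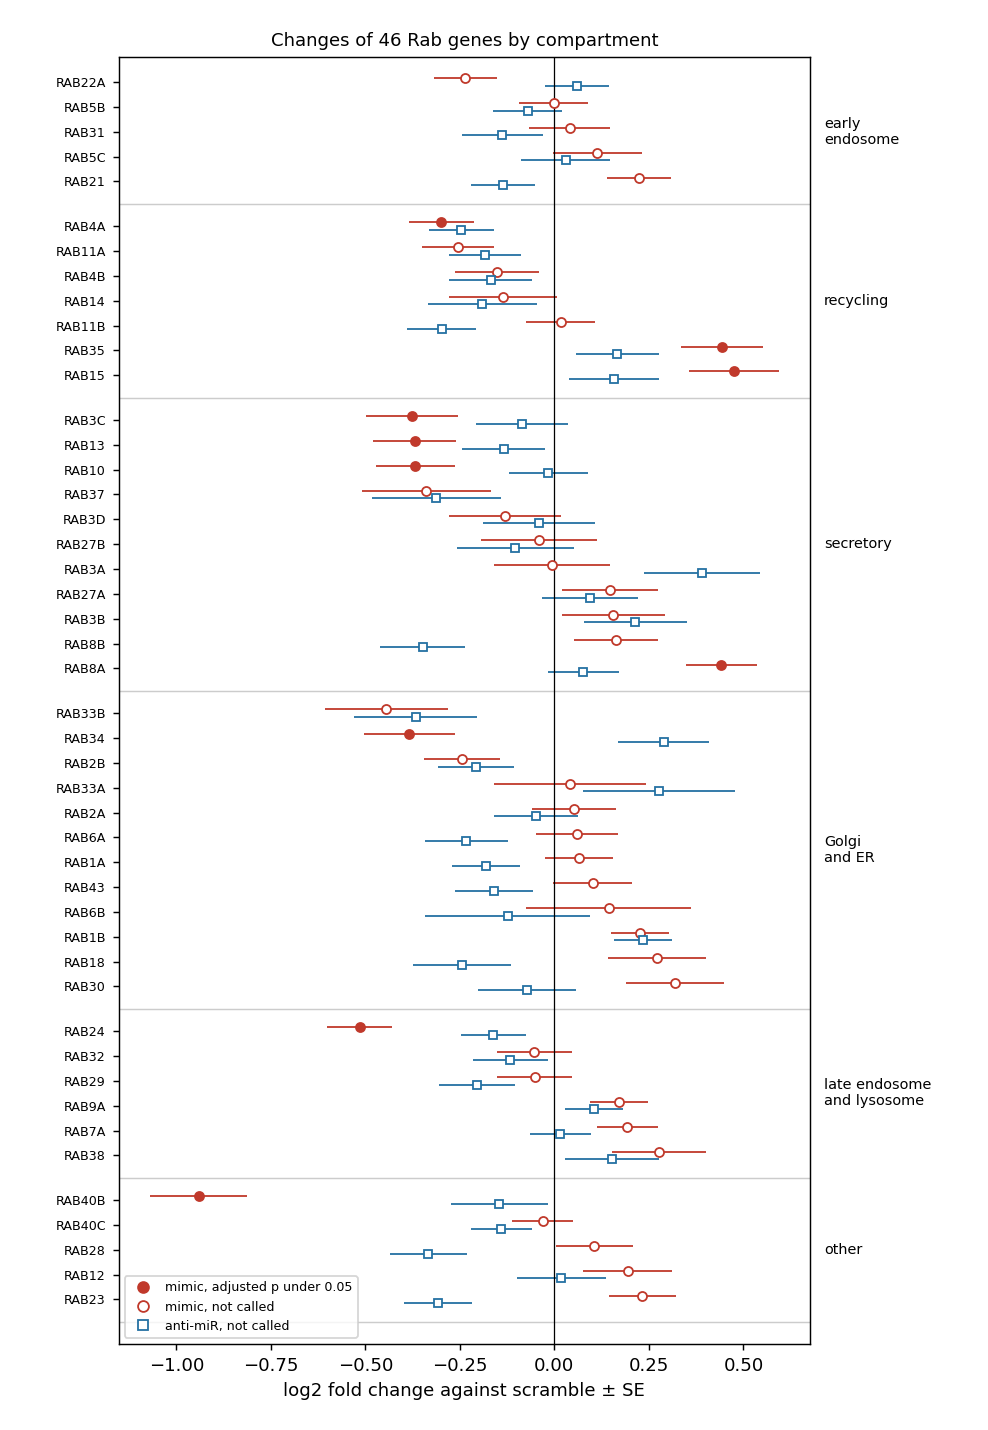
Log2 fold changes ± SE against scramble of the 46 Rab genes tested, grouped by compartment, with mimic as red circles (filled where the adjusted p was under 0.05) and anti-miR as blue squares, none of which was called. RAB40B lies farthest to the left at −0.94 in mimic cells, and the 10 filled points fall on both sides of 0.

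Early endosomes receive freshly internalized receptors, and RAB5 proteins are their best known Rabs. RAB5B and RAB5C, paralogs of RAB5A, had changes of −0.0015 ± 0.09 and 0.11 ± 0.12 in mimic cells (adjusted p = 0.994 and 0.541). Another RAB5C probe gave 0.13. RAB22A, which acts on early endosomes and in their link to recycling, had 8.22, 8.47, 8.39 and 8.35 on the mimic arrays and 8.69, 8.64, 8.57 and 8.46 on the scramble arrays. The highest mimic array reached the lowest scramble array, and the change was −0.24 ± 0.08 (adjusted p = 0.0697). RAB21, which carries integrins into the cell, had 8.98, 8.89, 8.78 and 8.75 on the mimic arrays and 8.71, 8.58, 8.53 and 8.68 on the scramble arrays. All mimic arrays were above all scramble arrays, with a change of 0.22 ± 0.08 that missed the threshold (adjusted p = 0.0824). RAB22A passed it without scramble replicate 4 (adjusted p = 0.0473) and both genes passed it with array weights (adjusted p = 0.0455 for RAB22A and 0.0457 for RAB21). For comparison, RAB5A itself, which is not among the 46 genes, changed by −0.63 ± 0.10 (adjusted p = 0.00232). RAB26, the other Rab gene that the rule leaves out, changed by −1.73 ± 0.16 (adjusted p = 0.000407), more than any of the 46.

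Recycling Rabs return receptors and membrane to the cell surface. RAB4A, which serves the fast recycling route, had 7.59, 7.56, 7.49 and 7.39 on the mimic arrays and 7.81, 7.80, 7.86 and 7.76 on the scramble arrays. No mimic array reached the scramble range. RAB4A was lower in mimic cells, with a change of −0.30 ± 0.09 (adjusted p = 0.0299).

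RAB35, which acts in fast recycling and in cell division, had 8.99, 8.86, 9.23 and 9.08 on the mimic arrays and 8.40, 8.85, 8.48 and 8.66 on the scramble arrays. The lowest mimic array lay just above the highest scramble array. RAB35 was higher in mimic cells by 0.44 ± 0.11 (1.36-fold, adjusted p = 0.0150). RAB15, a Rab of receptor recycling first studied in neural tissue, had 6.18, 6.37, 6.18 and 6.62 on the mimic arrays and 5.76, 5.93, 5.63 and 6.13 on the scramble arrays. Its groups were narrowly separated, and RAB15 was higher in mimic cells by 0.48 ± 0.12 (1.39-fold, adjusted p = 0.0164). Without background correction the RAB15 change was 0.26.

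The remaining recycling genes, RAB4B, RAB11A, RAB11B and RAB14, were not called, with changes between −0.26 and 0.02. RAB11A, the central Rab of the slow recycling compartment, had −0.26 ± 0.10 (adjusted p = 0.0794), at 10.24 ± 0.12 in mimic cells against 10.50 ± 0.16 in scramble cells. The RAB4A call was lost without mimic replicate 3 or 4 or scramble replicate 1, 2 or 3 (adjusted p up to 0.0881). The RAB15 call was lost without mimic replicate 4 or scramble replicate 1 or 3 (adjusted p up to 0.0512). RAB35 was called in every alternative.

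Secretory Rabs carry cargo to the plasma membrane. RAB8A, which brings vesicles from the Golgi apparatus to the surface and into cilia, had 10.62, 10.52, 10.81 and 10.68 on the mimic arrays and 9.98, 10.33, 10.28 and 10.27 on the scramble arrays. The mimic arrays lay wholly above the scramble arrays. RAB8A was higher in mimic cells by 0.44 ± 0.09 (1.36-fold, adjusted p = 0.00781) and was called in every alternative.

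RAB10, known for moving the glucose transporter GLUT4 to the surface, had 11.01, 11.37, 11.22 and 11.04 on the mimic arrays and 11.73, 11.56, 11.44 and 11.39 on the scramble arrays. The groups were separated by a narrow gap, and RAB10 was lower in mimic cells, with a change of −0.37 ± 0.10 (1.29-fold, adjusted p = 0.0286). RAB13, a Rab of cell junctions and of the leading edge of moving cells, had 8.99, 8.79, 8.89 and 8.91 on the mimic arrays and 9.13, 9.23, 9.28 and 9.41 on the scramble arrays. All mimic arrays were below all scramble arrays, and RAB13 was lower in mimic cells, with a change of −0.37 ± 0.11 (1.29-fold, adjusted p = 0.0351).

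RAB3C, a synaptic vesicle Rab, was dim, with 4.94, 5.41, 5.12 and 5.45 on the mimic arrays and 5.61, 5.56, 5.56 and 5.68 on the scramble arrays. It was detected on 2 of 4 mimic arrays and on 4 of 4 scramble arrays. Its change of −0.38 ± 0.12 (adjusted p = 0.0489) lay close to the threshold and was −0.21 with an offset of 50 and −0.18 without background correction. The other 7 secretory genes, RAB3A, RAB3B, RAB3D, RAB8B, RAB27A, RAB27B and RAB37, were not called, with changes between −0.34 and 0.16.

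Of these secretory calls, those of RAB10, RAB13 and RAB3C depended on single arrays. The RAB10 call was lost without mimic replicate 1 or 4 or scramble replicate 1 or 2 (adjusted p up to 0.0860). The RAB13 call was lost without mimic replicate 2, 3 or 4 or scramble replicate 2, 3 or 4 (adjusted p up to 0.0790), and the RAB3C call without mimic replicate 1 or 3, any scramble replicate, or anti-miR replicate 1 or 3 (adjusted p up to 0.133). RAB10 also missed the threshold with median scaling over all probes (adjusted p = 0.0558), and RAB13 with median scaling (adjusted p = 0.0547). RAB3C missed it in 9 of the 14 other settings that kept it.

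**Figure D2:**
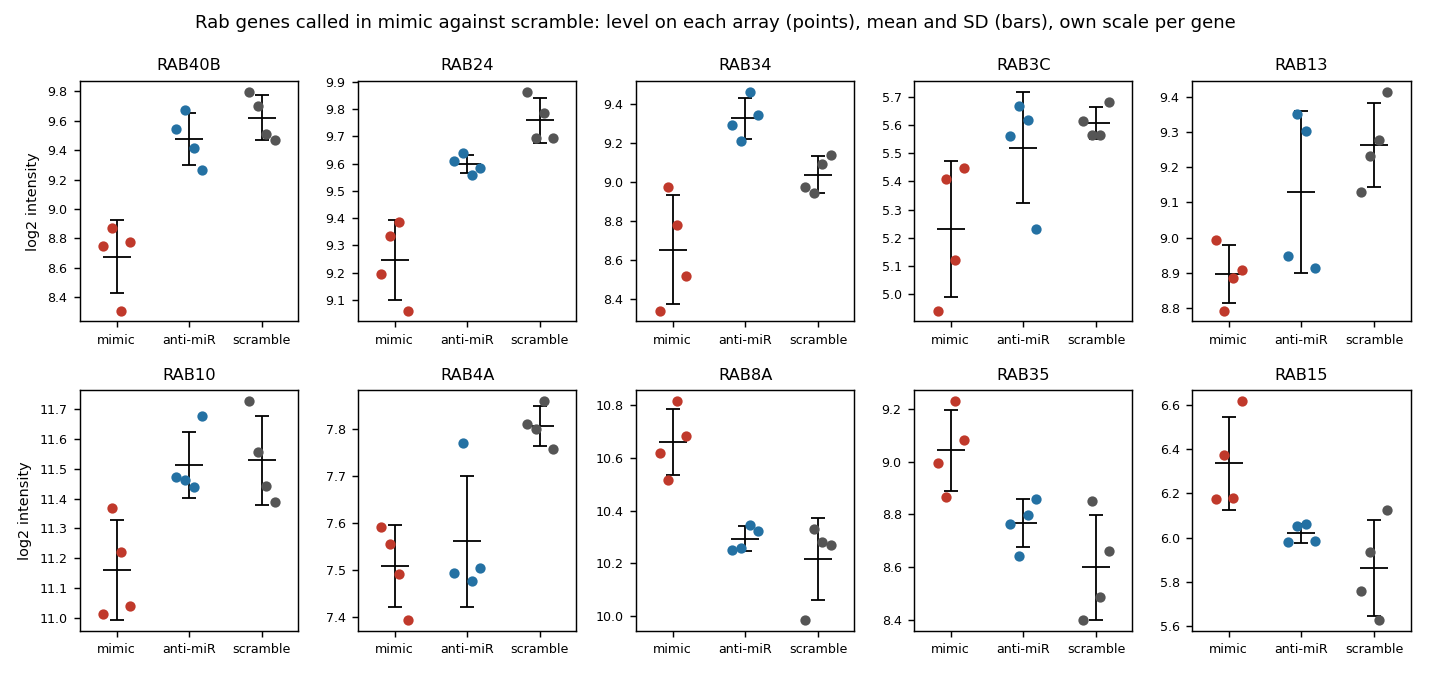
Normalized log2 intensity of the 10 Rab genes called in mimic against scramble, on each array (points) with the mean and SD (bars), for mimic, anti-miR and scramble arrays, each gene on its own scale. Mimic and scramble points are separated for all genes shown but RAB34, and the gap is widest for RAB40B.

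Golgi and endoplasmic reticulum Rabs handle early secretory traffic. RAB34, which positions lysosomes near the Golgi apparatus and acts in the building of cilia, had 8.34, 8.97, 8.78 and 8.52 on the mimic arrays and 8.98, 8.94, 9.09 and 9.14 on the scramble arrays. The highest mimic array lay within the scramble range, and RAB34 was lower in mimic cells, with a change of −0.38 ± 0.12 (adjusted p = 0.0430). This call was lost without mimic replicate 1, 3 or 4, any scramble replicate, or anti-miR replicate 1 or 4 (adjusted p up to 0.118). It was also lost in 4 of 15 other settings.

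The other 11 genes of the class were not called, with changes between −0.44 (RAB33B, adjusted p = 0.0754) and 0.32 (RAB30). RAB1B, needed for transport between the endoplasmic reticulum and the Golgi apparatus, had 7.28, 7.28, 7.44 and 7.30 on the mimic arrays and 7.06, 7.11, 7.02 and 7.20 on the scramble arrays. All mimic arrays were above all scramble arrays, with a change of 0.23 ± 0.08 (adjusted p = 0.0578). The probes of RAB2A, a Rab of the same step, disagreed: the brightest gave 0.05, and the other gave 0.38 and passed the threshold when every probe was fitted on its own (adjusted p = 0.0331). Of the 12 genes, 9 had a positive change and 3 a negative one, with a median of 0.06.

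Late endosomal and lysosomal Rabs direct material to degradation. RAB24, an unusual Rab with weak GTPase activity that is linked to autophagy, had 9.20, 9.34, 9.39 and 9.06 on the mimic arrays and 9.86, 9.69, 9.79 and 9.69 on the scramble arrays. All mimic arrays were well below all scramble arrays. RAB24 was lower in mimic cells, with a change of −0.51 ± 0.09 (1.43-fold, adjusted p = 0.00263) and was called in every alternative. Its 4 other kept probes had changes of −0.23, −0.15, −0.35 and −0.24, all negative and none called when fitted on their own. With the mean of its probes the RAB24 change was −0.30. RAB7A, the main Rab of late endosomes, and RAB9A, which returns cargo to the Golgi apparatus, had 0.19 ± 0.08 and 0.17 ± 0.08 (adjusted p = 0.116 and 0.139). For both genes all mimic arrays were above all scramble arrays. The 5 genes of the class that were not called lay between −0.05 and 0.28.

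Among the other Rabs, RAB40B showed the largest absolute change of the 46. RAB40B belongs to the Rab40 proteins, which carry a SOCS box that recruits a ubiquitin ligase, and it has been tied to secretion of matrix-degrading proteases by invading cells. It had 8.75, 8.87, 8.31 and 8.78 on the mimic arrays and 9.79, 9.70, 9.51 and 9.47 on the scramble arrays. All mimic arrays were far below all scramble arrays. RAB40B was lower in mimic cells, with a change of −0.94 ± 0.13 (1.92-fold, adjusted p = 0.00127) and was called in every alternative. The other 4 genes, RAB12, RAB23, RAB28 and RAB40C, lay between −0.03 and 0.23 and were not called, although RAB23 passed the threshold with array weights (0.25, adjusted p = 0.0491).

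The series title names the transcription factor AP-1, so promoters of the Rab genes were searched for the pattern TGANTCA, which reads the same on both strands. N stands for any base, so matches with any middle base were counted. Of the 46 genes, 38 had a promoter entry in RefSeq (GRCh38.p14). The motif was present in the 250 bases before a start of 6 of these 38 genes (15.8%), RAB5B, RAB3B, RAB27A, RAB27B, RAB13 and RAB34, and of 8.06% of all 27305 genes with an entry. Per window the shares were 10.3% of 58 and 6.57% of 35116. Among the genes called in mimic cells it was found in RAB13 and RAB34, 2 of 9 with an entry, and both were lower. A gene was counted if any of its windows held the motif, and only matching windows are printed, 5′ to 3′ on the minus strand with the motif in capitals. That of RAB13 is at chr1:153985394-153985643, with matches 102 to 96 and 89 to 83 bases before the annotated start used. That of RAB34 is at chr17:28718168-28718417, with a match 99 to 93 bases before its annotated start. Each window lies inside the span of its gene, chr1:153981650-153990708 for RAB13 and chr17:28714281-28718428 for RAB34. The starts used are thus internal ones and not the outermost start of the gene. A match describes these letters only, and binding was not measured.
RAB13: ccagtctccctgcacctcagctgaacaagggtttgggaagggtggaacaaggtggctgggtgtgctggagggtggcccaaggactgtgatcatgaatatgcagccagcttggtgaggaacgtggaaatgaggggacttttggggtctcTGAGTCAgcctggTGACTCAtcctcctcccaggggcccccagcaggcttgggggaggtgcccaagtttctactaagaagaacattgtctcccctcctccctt
RAB34: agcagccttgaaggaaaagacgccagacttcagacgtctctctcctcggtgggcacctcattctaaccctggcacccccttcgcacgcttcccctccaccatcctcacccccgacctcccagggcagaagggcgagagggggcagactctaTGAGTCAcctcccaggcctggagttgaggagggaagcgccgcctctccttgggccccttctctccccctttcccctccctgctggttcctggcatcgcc

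Compared with scramble cells, 0 of the 46 Rab genes were called by limma in anti-miR cells, where 0.127% of all genes were (0.0676% higher and 0.0591% lower). At an unadjusted p under 0.05 there were 10 of 46 (21.7%), against 16.5% of all genes, and the groups did not overlap for 9 of 46 (19.6%), against 8.94%. The median change was −0.12 over the 46 genes, with 15 positive and 31 negative. Over all genes it was −0.02, with 5489 positive and 6346 negative. The median over the 46 stayed negative in all 15 other settings, between −0.16 and −0.06.

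RAB23, which restrains hedgehog signalling at the cilium, had the smallest adjusted p (−0.31 ± 0.09, adjusted p = 0.132), with 9.45, 9.56, 9.62 and 9.53 on the anti-miR arrays and 9.83, 9.91, 9.84 and 9.82 on the scramble arrays. RAB1B had 7.31, 7.28, 7.41 and 7.32 on the anti-miR arrays, all above the scramble arrays given above (0.23 ± 0.08, adjusted p = 0.172). RAB28 (−0.33), RAB11B (−0.30) and RAB8B (−0.35) were likewise separated without passing the adjustment. Among the dimmer genes RAB3A had the largest change, 0.39 ± 0.15 (adjusted p = 0.233). RAB3A was detected on 1 mimic array, 3 anti-miR arrays and 1 scramble array. Without its anti-miR detections it would not have been tested, so its selection was not independent of this change.

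Genes called in mimic cells had the following values in anti-miR cells. RAB40B had 9.54, 9.67, 9.41 and 9.26 on the anti-miR arrays, a change of −0.15 (95% interval −0.42 to 0.13), and RAB8A had 10.25, 10.26, 10.34 and 10.32, a change of 0.08 (−0.12 to 0.28). The arrays of both genes overlapped those of scramble cells. RAB34 had 9.29, 9.21, 9.46 and 9.34 on the anti-miR arrays, all above the scramble arrays, with a change of 0.29 (0.03 to 0.55, adjusted p = 0.254). RAB4A had 7.49, 7.77, 7.48 and 7.50, with a change of −0.25 (−0.43 to −0.06, adjusted p = 0.192), so 3 of its 4 anti-miR arrays lay among the mimic values. RAB13 had 8.95, 9.35, 9.30 and 8.91, a change of −0.13. The changes were 0.16 for RAB15, 0.17 for RAB35, −0.09 for RAB3C, −0.16 for RAB24 and −0.02 for RAB10. None of these was called, and each had the sign of its change in mimic cells.

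The comparison of mimic with anti-miR cells shares its mimic arrays with the first and its anti-miR arrays with the second, so it is not independent of them. In it 12 of the 46 Rab genes were called, 26.1% of them against 15% of all genes, with 7 higher (15.2%, against 7.82%) and 5 lower (10.9%, against 7.19%) in mimic cells. The arrays did not overlap for 15 of 46 (32.6%), against 20% of all genes. The median change was 0.07 over the 46 genes and 0.01 over all genes. Among early endosome genes 1 was higher and 1 lower of 5, among recycling genes 1 higher of 7, among secretory genes 2 higher and 1 lower of 11, among Golgi and endoplasmic reticulum genes 1 higher and 1 lower of 12, among late endosome and lysosome genes 1 lower of 6, and among the others 2 higher and 1 lower of 5. With median scaling over all probes the split was 6 higher and 2 lower, and over all genes it was 637 higher and 590 lower.

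RAB40B (−0.80 ± 0.13, adjusted p = 0.00195), RAB34 (−0.67 ± 0.12, adjusted p = 0.00349), RAB24 (−0.35 ± 0.09, adjusted p = 0.0157) and RAB10 (−0.35 ± 0.10, adjusted p = 0.0355) were lower and RAB8A was higher (0.37 ± 0.09, adjusted p = 0.0196) in mimic than in anti-miR cells. For RAB34 all mimic arrays were below all anti-miR arrays. RAB24 had 9.61, 9.64, 9.56 and 9.59 on the anti-miR arrays, between the mimic and the scramble values, and another of its probes was also called on its own (−0.37, adjusted p = 0.0219). RAB10 had 11.47, 11.46, 11.44 and 11.68 on the anti-miR arrays, overlapping the scramble arrays and above all mimic arrays. The other genes called against scramble were not called against anti-miR. They were RAB4A (−0.05, adjusted p = 0.711), RAB13 (−0.23, adjusted p = 0.162), RAB15 (0.32, adjusted p = 0.0849), RAB35 (0.28, adjusted p = 0.0983) and RAB3C (−0.29, adjusted p = 0.120). RAB3C passed the threshold without anti-miR replicate 4 (adjusted p = 0.0491).

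The remaining 7 genes called against anti-miR were not called against scramble. RAB23 had 10.22, 9.97, 9.91 and 10.23 on the mimic arrays, all above the anti-miR arrays, and was higher in mimic cells by 0.54 ± 0.09 (adjusted p = 0.00219). Another RAB23 probe was also called on its own (0.42, adjusted p = 0.0115). The scramble arrays of RAB23 lay between those of the other groups.

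RAB8B, the paralog of RAB8A, had 9.16, 8.84, 8.68 and 9.02 on the mimic arrays, against 8.41, 8.66, 8.23 and 8.35 on the anti-miR arrays. These groups barely separated, and the scramble arrays of RAB8B, at 8.78, 8.76, 8.73 and 8.78, lay within the mimic range and above the anti-miR arrays. RAB8B was higher in mimic than in anti-miR cells by 0.51 ± 0.11 (adjusted p = 0.00926). RAB18, which works on the endoplasmic reticulum and on lipid droplets, had 7.68, 7.34, 7.32 and 7.43 on the mimic arrays, against 6.93, 7.19, 6.57 and 7.01 on the anti-miR arrays. Its scramble arrays, 7.17, 7.38, 7.02 and 7.11, overlapped both groups, and RAB18 was higher in mimic than in anti-miR cells by 0.52 ± 0.13 (adjusted p = 0.0177).

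RAB28, a Rab of cilia and photoreceptors, had 7.40, 7.52, 7.59 and 7.59 on the mimic arrays, against 7.12, 7.26, 6.87 and 7.09 on the anti-miR arrays. It was higher in mimic cells by 0.44 ± 0.10 (adjusted p = 0.0126), and its other probe gave 0.34 without a call of its own (adjusted p = 0.0571). RAB21, with its mimic arrays given above, had 8.38, 8.57, 8.57 and 8.44 on the anti-miR arrays and was higher in mimic cells by 0.36 ± 0.08 (adjusted p = 0.0131). For both genes all mimic arrays were above all anti-miR arrays.

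RAB11B, a recycling Rab like RAB11A, had 5.92, 6.05, 5.88 and 5.85 on the mimic arrays, against 5.70, 5.59, 5.58 and 5.58 on the anti-miR arrays. The scramble arrays of RAB11B, 5.90, 5.85, 5.75 and 6.14, were at the mimic level, and the change between mimic and anti-miR cells was 0.31 ± 0.09 (adjusted p = 0.0335). RAB22A had 8.68, 8.55, 8.65 and 8.72 on the anti-miR arrays and was the 1 gene of the 7 that was lower in mimic cells, with a change of −0.29 ± 0.08 (adjusted p = 0.0314). Its anti-miR arrays overlapped its scramble arrays.

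Several of these calls ended when an array was left out. RAB22A lost its call without mimic replicate 1 or 4 or anti-miR replicate 1, 3 or 4 (adjusted p up to 0.0994), RAB11B without mimic replicate 1, 2 or 4 or anti-miR replicate 2, 3 or 4 (up to 0.0756), and RAB10 without mimic replicate 1 or 4 or anti-miR replicate 1, 2 or 4 (up to 0.109). RAB18 lost it without mimic replicate 1 (0.0610), RAB24 without mimic replicate 4 (0.0550), and RAB8A without mimic replicate 4 or anti-miR replicate 1 (up to 0.0536). With median scaling over all probes RAB22A (0.117), RAB11B (0.0906), RAB10 (0.0782) and RAB24 (0.0710) missed the threshold. RAB10 (0.0611), RAB22A (0.0603) and RAB11B (0.0535) missed it with the replicate number as a term of the fit. RAB11B also missed it with an offset of 50 (0.19, adjusted p = 0.0825), without background correction (0.16, adjusted p = 0.124) and with a robust and trended spread (adjusted p = 0.110). RAB40B, RAB34, RAB23, RAB28, RAB21 and RAB8B were called in every alternative.

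**Figure D3:**
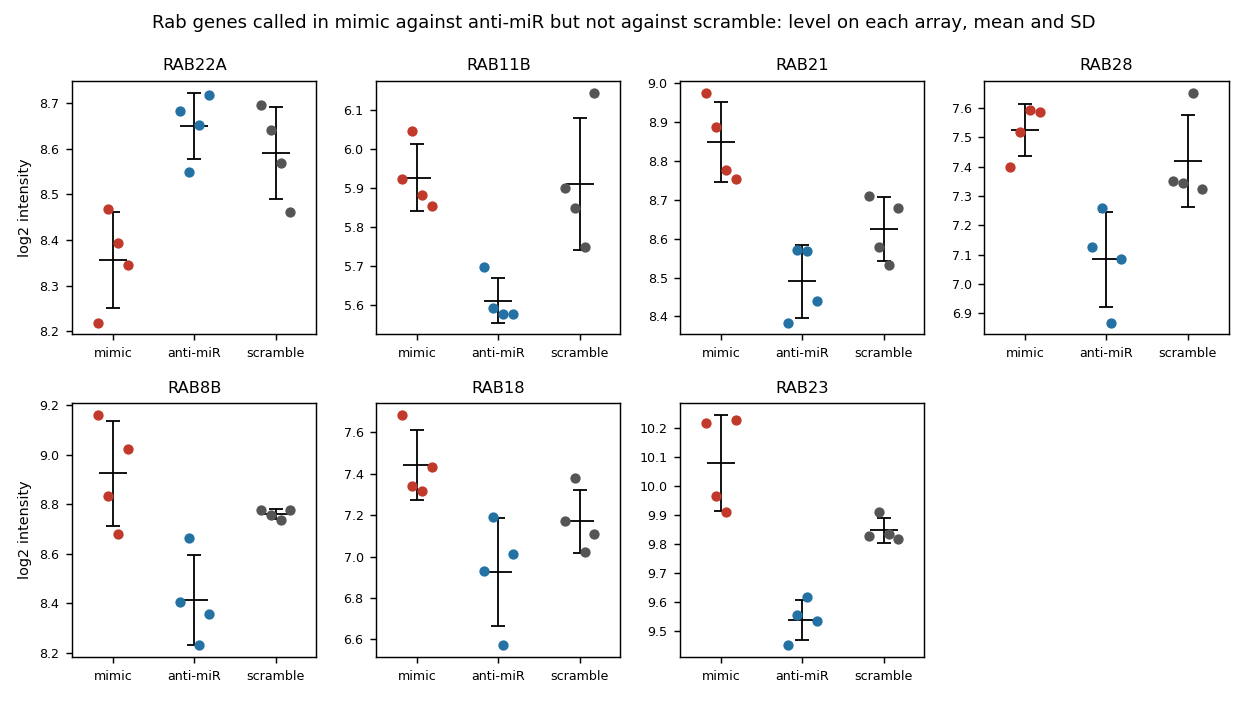
Normalized log2 intensity of the 7 Rab genes called in mimic against anti-miR but not against scramble, on each array (points) with the mean and SD (bars), each gene on its own scale. Mimic points lie above the anti-miR points for 6 genes and below them for RAB22A, and scramble points lie between them or overlap either group.

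Closely related Rab genes were set against each other on the same arrays, as the difference of their log2 levels, in 16 pairs and in both comparisons with scramble. With 4 arrays against 4, the smallest p of the two-sided exact permutation test is 0.0286, so no pair could pass after adjustment unless many reached it, and none did. The difference of RAB40B minus its paralog RAB40C changed by −0.91 in mimic cells (exact permutation p = 0.0286, adjusted 0.153) and by −0.0049 in anti-miR cells (exact permutation p = 1). RAB40C had 9.59, 9.41, 9.43 and 9.52 on the mimic arrays and 9.50, 9.65, 9.50 and 9.42 on the scramble arrays, which overlapped throughout. Against scramble cells, the differences RAB3B minus RAB3C and RAB3A minus RAB3C changed in mimic cells by 0.53 and 0.37 (each exact permutation p = 0.0286, adjusted 0.153). The difference of RAB8A minus RAB8B changed by 0.28 in mimic cells (exact permutation p = 0.143) and by 0.42 in anti-miR cells (exact permutation p = 0.0286, adjusted 0.228). That of RAB33A minus RAB33B, Golgi Rabs with a role in autophagy for RAB33B, changed by 0.64 in anti-miR cells (exact permutation p = 0.0286, adjusted 0.228). That of RAB4A minus RAB4B changed by −0.15 in mimic cells (exact permutation p = 0.200). Whether probes of such paralogs bind each other's transcripts was not tested.

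**Figure D4:**
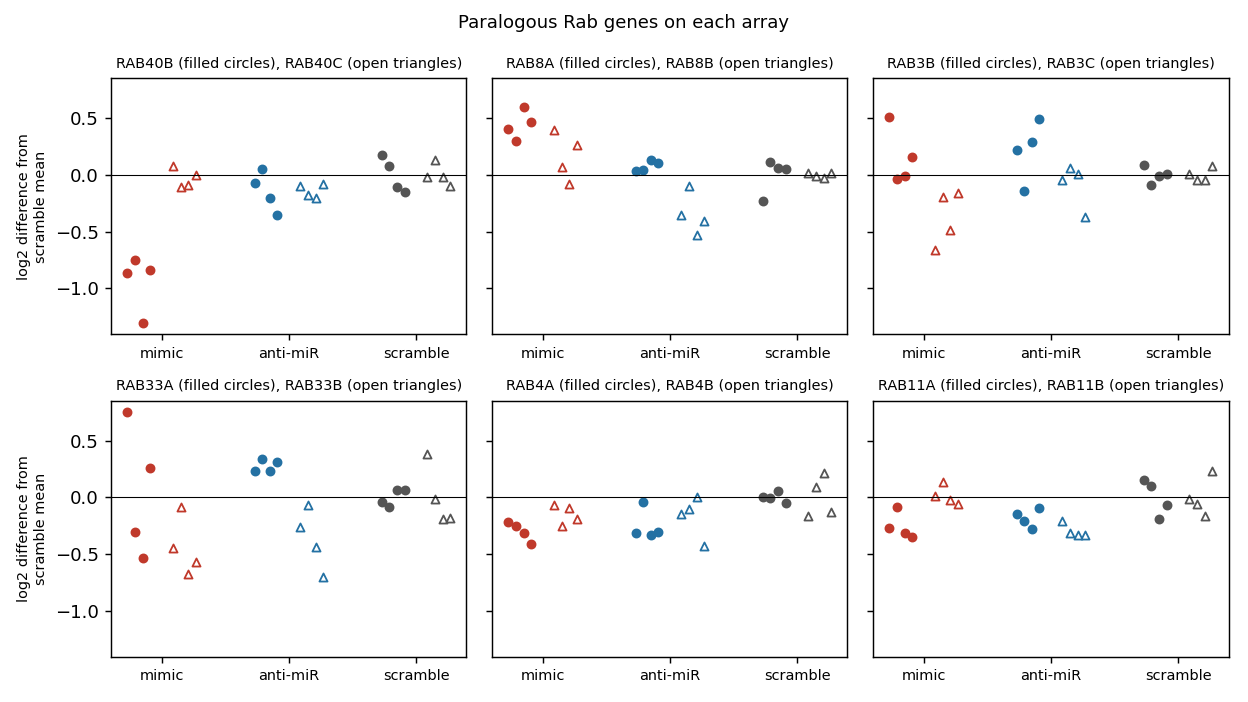
Levels of 6 pairs of paralogous Rab genes on each array, as log2 difference from the gene's own scramble mean, with the first gene of a pair as filled circles and the second as open triangles, for mimic, anti-miR and scramble arrays. RAB40B falls away from RAB40C on all 4 mimic arrays, while the anti-miR arrays of the pair lie together.

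The proteins that load, switch off, deliver and read Rabs were listed as 130 genes. The array held 121 of them, and 102 could be tested. In mimic cells 14 of the 102 changed (13.7%, against 16.2% of all genes), 5 higher and 9 lower, and their median change was −0.06. Without background correction the count rose to 19. It fell to 7 without mimic replicate 3 or 4 or scramble replicate 1 or 2. With median scaling over all probes it fell to 9, with 2 higher and 7 lower. Over all genes the counts were 2410 without background correction, 1089 to 1303 without 1 of those arrays and 1444 with that scaling, against 1919. Exchange factors held 3 higher and 5 lower of 32 tested (25%), effectors 1 higher and 4 lower of 32 (15.6%), GTPase activating proteins 1 higher of 32 (3.12%), and the GDP dissociation and prenylation proteins 0 of 6. These counts depend on the choice of the brightest probe. With every probe fitted on its own, dimmer probes of the GTPase activating protein TBC1D20 (0.44, adjusted p = 0.0162) and the exchange factor DENND4C (−0.82, adjusted p = 0.0106) passed the threshold, unlike their brightest probes. The dimmer probes of GORAB, HPS1, OSBPL1A and VPS41, which are among the called genes, did not pass it. In anti-miR cells limma called 0 of the 102, with 17 (16.7%) at an unadjusted p under 0.05 against 16.5% of all genes, and their median was −0.11.

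The largest change was that of SBF2, a DENN-domain exchange factor, with 6.20, 6.51, 5.85 and 5.68 on the mimic arrays and 7.51, 7.53, 7.54 and 7.15 on the scramble arrays. SBF2 was lower in mimic cells, with a change of −1.37 ± 0.16 (adjusted p = 0.00108), and its dimmer probe gave −0.43. The SBF2 change was −0.90 with the mean of its probes and −0.89 without background correction. OCRL, an inositol phosphatase that binds several Rabs and is mutated in Lowe syndrome, had 7.99, 8.43, 8.14 and 7.75 on the mimic arrays and 8.90, 9.0, 8.95 and 8.87 on the scramble arrays. It was lower, with a change of −0.85 ± 0.12 (adjusted p = 0.00152), and its other probe gave −0.64. For both genes all mimic arrays were clearly below all scramble arrays.

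RIN2, an exchange factor for RAB5 proteins, had 6.30, 6.60, 6.08 and 6.11 on the mimic arrays and 7.10, 7.0, 6.90 and 6.80 on the scramble arrays (−0.68 ± 0.13, adjusted p = 0.00473). DENND6B, an exchange factor for RAB14, had 6.29, 6.22, 6.36 and 6.06 on the mimic arrays and 7.11, 6.76, 6.87 and 7.05 on the scramble arrays (−0.71 ± 0.10, adjusted p = 0.00127). RAB3IL1, which can load RAB3A and RAB8 proteins, was higher, with 10.61, 10.23, 10.53 and 10.64 on the mimic arrays and 10.02, 9.84, 9.89 and 9.81 on the scramble arrays (0.61 ± 0.10, adjusted p = 0.00263). None of these groups overlapped, and SBF2, OCRL, RIN2, DENND6B and RAB3IL1 were called in every alternative. Without background correction the changes were −0.43 for RIN2 and −0.45 for DENND6B. RAB14 itself had −0.14 (adjusted p = 0.553) in mimic cells.

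Smaller changes were seen in HPS1, part of the exchange factor for RAB32 and RAB38 (0.53 ± 0.14, adjusted p = 0.0194), RGP1, part of the exchange factor for RAB6 (−0.52 ± 0.16, adjusted p = 0.0374), TBC1D17, a GTPase activating protein (0.42 ± 0.12, adjusted p = 0.0309), APPL1, a RAB5 effector (−0.40 ± 0.13, adjusted p = 0.0479), and GORAB, a golgin that binds RAB6 (0.37 ± 0.09, adjusted p = 0.0139). Each of these calls was lost in some analyses. Without 1 array the adjusted p reached 0.0609 for HPS1 (mimic replicate 3 or scramble replicate 1), 0.108 for RGP1 (any mimic replicate but 2, or scramble replicate 2 or 4), 0.0927 for TBC1D17 (mimic replicate 2, 3 or 4, or scramble replicate 1, 2 or 4) and 0.125 for APPL1 (any mimic replicate, scramble replicate 1, 2 or 3, or anti-miR replicate 3). GORAB missed the threshold when its probes were averaged (adjusted p = 0.0762). Without background correction the changes were −0.29 for RGP1 and 0.25 for TBC1D17. RAB6A, RAB6B, RAB32 and RAB38, which RGP1, GORAB and HPS1 serve, had changes of 0.06, 0.14, −0.05 and 0.28, none called.

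Between mimic and anti-miR cells 15 of the 102 were called (14.7%, against 15% of all genes), 8 higher and 7 lower. Without mimic replicate 1 the count was 9, and over all genes it was 877, against 1777 with every array. SBF2 (−1.29), DENND6B (−0.76), OCRL (−0.69) and RIN2 (−0.63) were the largest falls in mimic cells. Without background correction the changes were −0.83 for SBF2, −0.48 for DENND6B and −0.40 for RIN2. RAB11FIP1, an effector that links RAB11 to recycling vesicles, was higher by 0.52 ± 0.12 (adjusted p = 0.0121). CHML, a Rab escort protein for prenylation, was lower, with a change of −0.48 ± 0.12 (adjusted p = 0.0169). That of CHML was −0.27 with an offset of 50 and −0.23 without background correction.

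**Figure D5:**
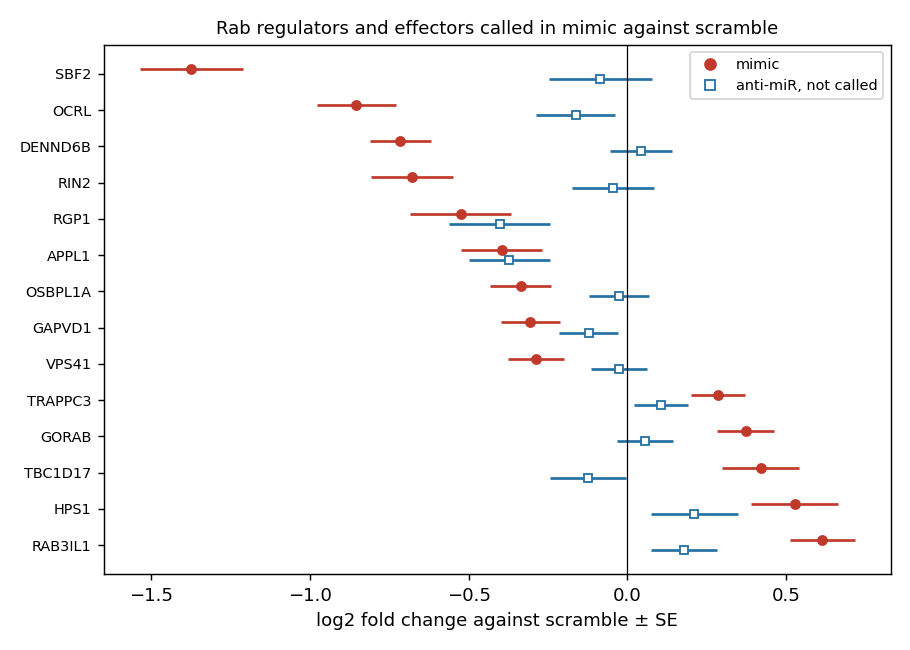
Log2 fold changes ± SE against scramble of the 14 Rab regulators and effectors called in mimic cells, with mimic as filled red circles and anti-miR as open blue squares, none of which was called. SBF2, OCRL, DENND6B and RIN2 are the lowest in mimic cells, and their anti-miR values lie between −0.16 and 0.04.

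Of the 60 Rab genes on the platform, 14 did not reach the detection limit and were not tested. RAB25 and RAB42 were detected on 3 of 12 arrays, RAB36 on 2 and RAB9B on 1, and RAB6C, RAB6D, RAB7B, RAB17, RAB19, RAB20, RAB39A, RAB39B, RAB40A and RAB41 on 0. Epithelial RAB17 and RAB25 are among them, as is RAB20 of early endosomes and phagosomes. Of the genes tested, RAB3A, RAB3C, RAB3D, RAB6B, RAB14, RAB27A and RAB37 were not detected on every array, and their values near background are the least certain.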

How the data were processed

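Total RNA was taken with Trizol and column clean-up and amplified into biotin-labelled cRNA for Illumina arrays, per the labels' protocols. The deposited unnormalized table gives, per the file headers, a mean signal intensity with no scaling seen and a detection p-value for 47322 probes on 12 arrays. A deposited normalized intensity table, on a linear scale with a median of 12 over all its values and 159270 values below 0, was used as an alternative. How the authors made it is not given in the sources used here. Groups came from the sample labels, and 0 columns were unmatched.

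Raw intensities were background-corrected with normexp from the detection p-values (offset 16), quantile normalized and taken to log2 (limma 3.58.1, R 4.3.3). Probes with a detection p under 0.05 on at least 4 arrays were kept (20768, of which 15758 had a gene symbol). The platform's gene table gave 1 symbol for 30113 probes, several for 8 and none for 17201. The brightest probe stood for each of 11835 genes, 3112 of them with several probes. Group means were estimated by limma in 1 linear model of the 12 arrays, with Benjamini-Hochberg adjustment over all genes in each of 3 comparisons. On simulated data for mimic against scramble with 11835 genes, 55% of 100 genes changed by 0.5 and 89% of 100 genes changed by 1 were recovered, with 6 false calls among 150. The simulation changed only 200 genes, whereas 1919 were called in the real comparison. The adjustment depends on that share, so these rates may not hold for the real data. The number of arrays limits precision.

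The Rab genes, their compartments and the list of 130 regulators were compiled from general knowledge and chosen with earlier results of these data known. Every Rab gene was named or counted under its compartment. For those called in any comparison, values were given on the arrays of the groups compared, and the figures show all 12 arrays. The 10 called regulators with the largest change in mimic cells were named. RAB1B, RAB40C and the other Rab genes and regulators named beyond this were added after their values were seen. Replicate numbers did not clearly pair the arrays: correlations of same-numbered deviations ranged from −0.224 to 0.227, with 2 of 12 over 0.1. Those 2 were between mimic and anti-miR arrays (0.135 for replicate 2 and 0.227 for replicate 3), where pairing is not settled. Alternatives covered background correction, normalization, the deposited table, the detection filter, the choice of probe, the fit and each array left out.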

Additional observations from a re-analysis of the deposited data

Results flagged for a closer look

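An array far from the other 3 of its group was found in 13 of 138 groups of 4 arrays (46 Rab genes in 3 groups). Chance alone marks about 1 in 20 such groups of independent, normally distributed values. The 138 groups share the same arrays and the share over all genes was not computed, so no excess can be read from this count. All values are normalized log2 intensities. On mimic replicate 3, RAB1B (7.44, next 7.30) and RAB5C (8.67, next 8.35) were high and RAB2B was low (10.41, next 10.64), and on mimic replicate 2 RAB14 was low (5.04, next 5.35). On anti-miR replicate 4, RAB10 was high (11.68, next 11.47) and RAB37 low (4.58, next 5.24). RAB11B was high on anti-miR replicate 1 (5.70, next 5.59) and RAB4A on anti-miR replicate 2 (7.77, next 7.50). On scramble replicate 3, RAB28 (7.65, next 7.35), RAB30 (6.26, next 5.87) and RAB6A (7.73, next 7.57) were high. RAB8A was low on scramble replicate 1 (9.98, next 10.27) and RAB31 on scramble replicate 4 (8.21, next 8.52). RAB8A was called in mimic against scramble cells also without scramble replicate 1.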

How the results depend on the processing

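No result changed direction with a call on either side. Mimic against scramble, the Rab genes gave 7 to 14 calls over 15 other settings (14 with array weights, 8 with the replicate block) and 5 to 11 without 1 array. Their regulators gave 9 to 19 over the other settings, with 19 without background correction and 11 with the replicate block, and 7 to 15 without 1 array. The 9 came with median scaling over all probes, a setting chosen after seeing the data. Over all genes there were 1444 with that scaling (500 higher, 944 lower, against 881 and 1038) and 1797 with the replicate block. There were 2410 without background correction and 2437, the most, with a robust and trended spread. Without 1 array there were 1089 to 2072. The lowest counts were 1089 without scramble replicate 1, 1176 without mimic replicate 4 and 1210 without mimic replicate 3. Anti-miR against scramble, 0 Rab genes and 0 regulators were called by limma in every alternative. The 15 calls over all genes became 30 with an offset of 50, 36 without background correction, 6 without a filter, 0 with only the 8 arrays compared, 57 with a robust and trended spread, 99 with array weights, 2 with the replicate block, 0 with median scaling over all probes, and 0 to 31 without 1 array; median scaling gave 10 higher and 3 lower, against 8 and 7. Mimic against anti-miR, the Rab genes gave 8 to 13 calls over the other settings (9 with the replicate block) and 8 to 13 without 1 array. The regulators gave 11 to 22 over the other settings (13 with the replicate block) and 9 to 17 without 1 array. All genes gave 1227 to 2106 over the other settings (1590 with the replicate block). They gave 877 to 1848 without 1 array (877 without mimic replicate 1, 957 without mimic replicate 4). The cause was not tested, except that fewer arrays enter where 1 is left out. Of same-numbered arrays, 4 of 12 correlated best with their own number. Between mimic and anti-miR arrays the correlations were 0.0783, 0.135, 0.227 and 0.0389 for replicates 1 to 4, best with the own number for replicates 1, 2 and 3. These small values do not settle if those arrays were paired, so the block is given as a check of the fit. Under it the adjusted p was above the threshold for RAB13 (0.0559), RAB34 (0.05) and RAB3C (0.0692) in mimic against scramble. In mimic against anti-miR it was above it for RAB10 (0.0611), RAB11B (0.0535) and RAB22A (0.0603). The size of some changes of dim genes also depends on the background correction, as given beside them. A chip block was not run because the headers used here give no chip.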
